A study of Arabidopsis thaliana with 8 samples.

Results

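The 34 calcium-dependent protein kinases of Arabidopsis thaliana, CPK1 to CPK34, were followed in stems that were 10 cm long. CEF2-VP16 nst1 nst3 plants were compared with nst1 nst3 plants, on 4 single-colour Agilent arrays each. The first group carried the construct NST3pro:CEF2-VP16:HSP in the nst1-1 nst3-1 double mutant and is called CEF2-VP16 nst1 nst3 here. The second was the nst1-1 nst3-1 double mutant alone, called nst1 nst3. Both groups therefore lack working NST1 and NST3, the switches of secondary wall formation in fibers, and both are in the Col0 background. In the construct the NST3 promoter, known from fibers, drives an AP2/ERF factor fused to the viral activation domain VP16. It is called CEF2 in the labels and ERF035 in the design text. Plants grew on soil in a greenhouse at 23 °C with 16 h light and 8 h dark. The labels give neither the number of transgenic lines nor that of plants behind an array. The p-values therefore cover the spread among these arrays, part of which may be technical.

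The family was taken whole, by locus, as a list of 34 loci, of which 32 are among the 25410 loci that the array's RefSeq accessions name. The family was selected on the processed signals of this same contrast, in that it was picked with them known, and within it no kinase was admitted or removed by its value. Fold changes and adjusted p-values below come from a fit of all genes and describe the members; they are not independent support for a pattern in the family. CPK22 (AT4G04710) and CPK23 (AT4G04740) had no probe under the accessions of the gene table and are not analysed here. Genes entered the fit when 4 or more of the 8 arrays showed the probe well above background, and 29 kinases did. CPK19 (AT1G61950) was not well above background on any array. CPK20 (AT2G38910) was above background on 0 of 4 CEF2-VP16 nst1 nst3 arrays and 2 of 4 nst1 nst3 arrays. CPK25 (AT2G35890) was above background on 1 array of each group. No level was compared for these 3 genes.

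A CPK joins a calcium sensor and an enzyme in 1 protein. A variable N-terminal region, often carrying lipid anchors, is followed by a serine/threonine kinase domain, an autoinhibitory junction and a calmodulin-like domain with EF hands. When calcium binds the EF hands, the junction is released and the kinase phosphorylates its targets. These include NADPH oxidases, ion channels and transcription factors of wounding, immunity, abscisic acid and nitrate responses, and some members act mainly in pollen. In stems, CPK28 is known from mutants with shortened stem elongation and altered vascular development. The family is usually divided into subgroups I to IV.

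Values are log2 of the processed signal over the array's 75th percentile, with a floor at -6.64. That percentile lay between 2344 and 3255 units on the CEF2-VP16 nst1 nst3 arrays and between 2774 and 3642 units on the nst1 nst3 arrays. The construct's own gene, ERF035 (AT3G60490), averaged 4.14 in CEF2-VP16 nst1 nst3 stems and -3.58 in nst1 nst3 stems. Each group lay on a slide of its own with a scan of its own, so slide, scan and genotype cannot be told apart. Of all 19609 genes tested, 29.5% were higher and 24.8% lower (54.2% in all) in CEF2-VP16 nst1 nst3 stems (limma, Benjamini-Hochberg adjusted p under 0.05). Relative to the percentile, the detected probes of the added control RNA (E1A spike-ins) were brighter on the CEF2-VP16 nst1 nst3 arrays, by 0.38 to 0.55 log2 units. Scaling on them moves the median gene by -0.44 and leaves 10.6% higher and 40.1% lower. Differences below are relative to the 75th percentile, and spike-in values are given for each kinase whose call changes.

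Among the 29 tested kinases more were lower than higher. In CEF2-VP16 nst1 nst3 stems 4 were higher and 15 lower, or 1 and 23 with spike-in scaling, and 10 did not pass. The median difference was -0.32 log2 units, beside 0.03 over all genes. At least 2-fold falls were read for 11 kinases, where 10.5% of all genes fell by that much, and at least 2-fold rises for 2, where 10.7% of all genes did. The groups did not overlap for 18 kinases, 3 above (27.9% of all genes) and 15 below (22.7% of all genes), against 50.7% of all genes in either direction. Since the contrast was known when the family was picked, these shares are given as a description only. Near-identical transcripts can bind the same probe, which for close pairs such as CPK1 and CPK2 or CPK17 and CPK34 cannot be told from the files.

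**Figure D1:**
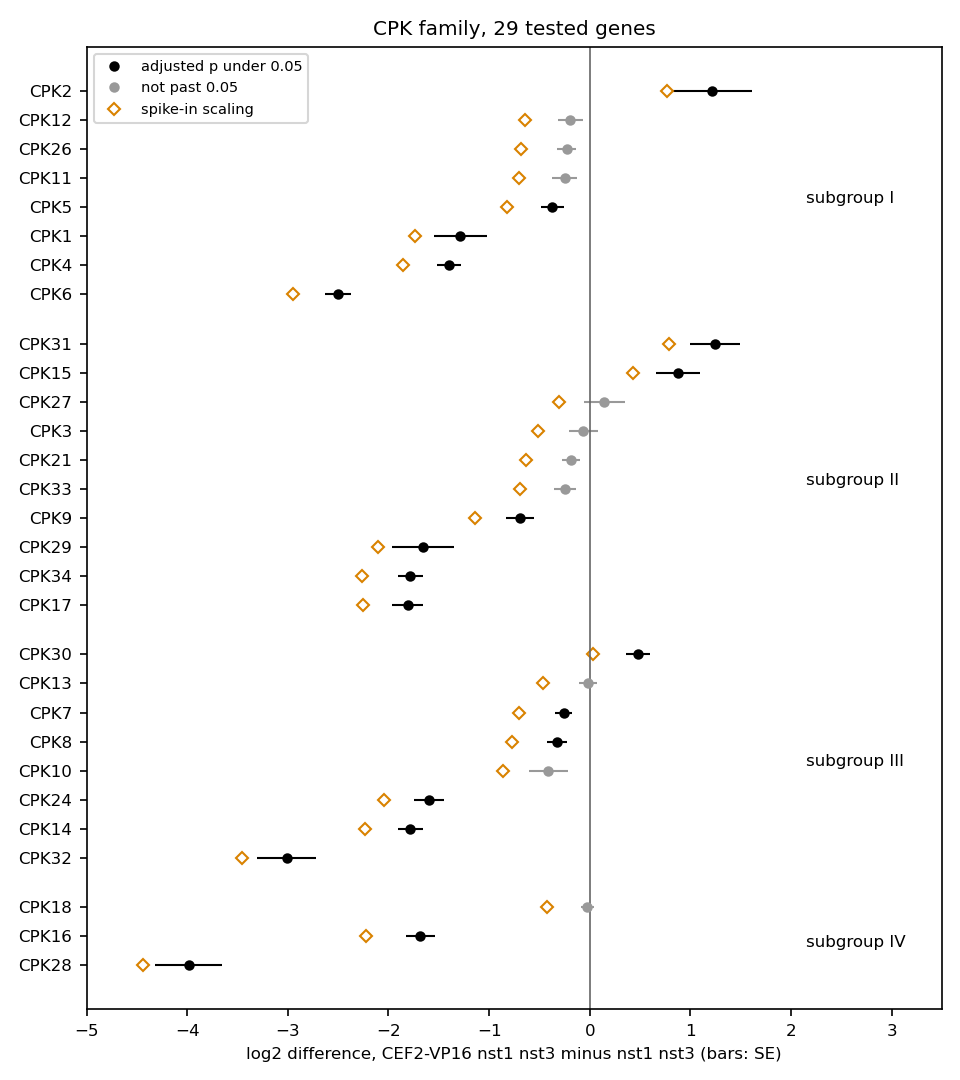
Log2 difference between CEF2-VP16 nst1 nst3 and nst1 nst3 stems for the 29 tested CPK genes, by subgroup. Filled points with bars show the difference and its SE (black, adjusted p under 0.05; grey, not past it), and open diamonds show the same difference with spike-in scaling. CPK28 lies farthest left at -3.99 and CPK31 farthest right at 1.24.

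The largest differences were in CPK28, CPK32 and CPK6. CPK28 (AT5G66210, subgroup IV) dampens immune signalling through the turnover of the receptor-associated kinase BIK1. It read 0.24, 0.59, 0.15 and 0.45 in CEF2-VP16 nst1 nst3 stems, against 5.06, 3.94, 3.53 and 4.84 in nst1 nst3 stems. Every nst1 nst3 array was well above every CEF2-VP16 nst1 nst3 array. CPK28 fell by 3.99 ± 0.33 log2 units (SE, n = 4 per group; limma adjusted p = 9.41e-05), a 15.8-fold difference. A second CPK28 probe, designed on another transcript of the gene, differed by -4.95.

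CPK32 (AT3G57530, subgroup III) phosphorylates the nitrate regulator NLP7 together with CPK10 and CPK30, and also acts in abscisic acid signalling. It read 1.87, 3.05, 2.52 and 2.80 in CEF2-VP16 nst1 nst3 stems, against 5.92, 5.63, 4.95 and 5.78 in nst1 nst3 stems. The groups were far apart, although CEF2-VP16 nst1 nst3 array 1 lay clearly below the other arrays of its group. CPK32 fell by 3.01 ± 0.29 (SE, n = 4 per group; limma adjusted p = 0.000166), which is 8.06-fold. CPK10 (AT1G18890) differed by -0.41 and did not pass, or -0.86 with a call under spike-in scaling. CPK30 (AT1G74740) rose by 0.48 ± 0.12, or 0.03 with no call under spike-in scaling.

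CPK6 (AT2G17290, subgroup I) acts in guard cells on the anion channel SLAC1 and in defence on NADPH oxidase. Its values were -1.55, -1.42, -1.69 and -1.73 in CEF2-VP16 nst1 nst3 stems and 1.17, 1.00, 0.64 and 0.81 in nst1 nst3 stems. Arrays within a group lay close together, and the fall was 2.50 ± 0.13 (SE, n = 4 per group; limma adjusted p = 2.46e-05). The second CPK6 probe differed by -2.57. The closest relatives of CPK6 in subgroup I differed less. CPK5 (AT4G35310), which activates the NADPH oxidase RBOHD, fell by 0.37 ± 0.11 (-0.82 with spike-in scaling). CPK26 (AT4G38230) read -0.23 without passing, although its groups did not overlap, and -0.68 with a call under spike-in scaling. Whether these 3 genes differ from each other was not tested. Leaving out 1 array at a time, CPK5 passed in 6 of 8 fits.

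CPK4 (AT4G09570), a kinase of abscisic acid and immune signalling, read -1.02, -1.11, -1.20 and -0.999 in CEF2-VP16 nst1 nst3 stems, against 0.55, 0.46, 0.15 and 0.12 in nst1 nst3 stems. Each array of the nst1 nst3 group was above all those of the other, and CPK4 fell by 1.40 ± 0.12 (SE, n = 4 per group; limma adjusted p = 0.000101). Its near paralog CPK11 (AT1G35670), with a shared role in abscisic acid responses, read -0.25 and did not pass, or -0.70 with a call under spike-in scaling.

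CPK1 (AT5G04870), known from defence and cell death, read 0.23, 0.15, 0.10 and 0.36 in CEF2-VP16 nst1 nst3 stems and 1.99, 1.94, 0.77 and 1.28 in nst1 nst3 stems. The nst1 nst3 arrays were spread out, with array 3 nearest to the other group. CPK1 fell by 1.28 ± 0.26 (SE, n = 4 per group; limma adjusted p = 0.00424). CPK29 (AT1G76040, subgroup II), which phosphorylates PIN auxin carriers, had the same low array. It read 1.95, 2.20, 2.27 and 2.31 in CEF2-VP16 nst1 nst3 stems, against 4.20, 4.31, 2.84 and 4.004 in nst1 nst3 stems, and fell by 1.66 ± 0.31 (limma adjusted p = 0.00272). A second CPK29 probe differed by -2.24. Among the kinases of stress and immunity, CPK3 (AT4G23650), which acts in salt and immune responses, read 2.26 ± 0.06 in CEF2-VP16 nst1 nst3 stems and 2.33 ± 0.29 in nst1 nst3 stems (SD, n = 4). It did not pass, though spike-in scaling gave -0.51 with a call.

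**Figure D2:**
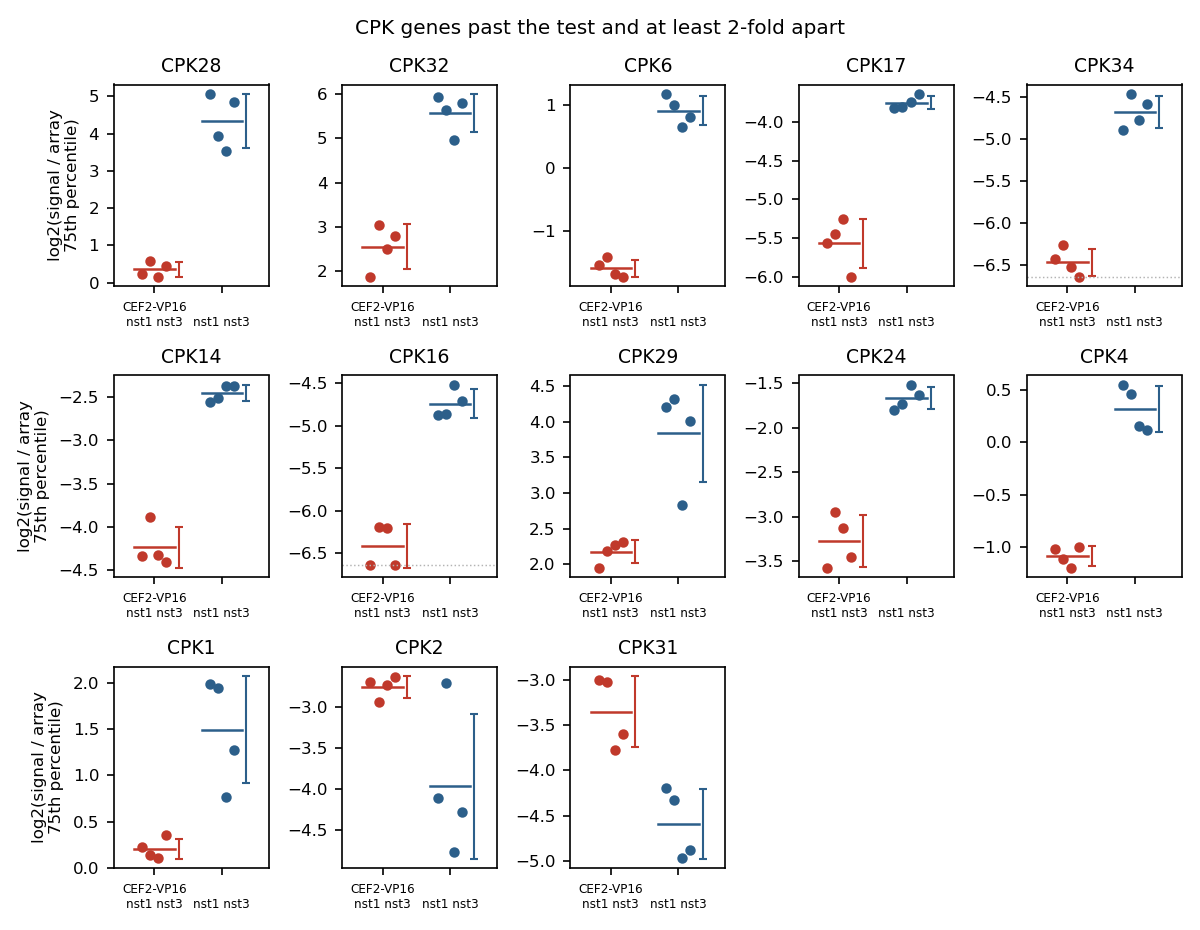
Log2 signal over the array's 75th percentile on each array for the 13 CPK genes that passed the test with at least a 2-fold difference, CEF2-VP16 nst1 nst3 left and nst1 nst3 right. Points are arrays, horizontal lines group means, the bars beside them SD (n = 4), and the dotted line in 2 panels the floor. In 12 panels the groups do not overlap; in that of CPK2 one nst1 nst3 array lies among the CEF2-VP16 nst1 nst3 arrays.

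Genes of rapid responses were read beside these kinases, where 24.8% of all genes were lower and 29.5% higher. Of 19 early-response genes of touch, wounding and cold, 18 were lower in CEF2-VP16 nst1 nst3 stems and none was higher, with a median difference of -3.87. This list, like the gene lists below, was chosen with earlier results of these data known. Its counts are a description only. Their summed level lay between 12.3 and 36.3 times the 75th percentile on the CEF2-VP16 nst1 nst3 arrays, against 125 to 460 times on the nst1 nst3 arrays. Within the nst1 nst3 group, array 3 was the lowest for 13 of the 18 and array 1 the highest for 9. Array 3 was also the lowest for 4 of 6 falling kinases of stress, immunity and nitrate roles (CPK1, CPK6, CPK28 and CPK32). Array 1 was the highest for all 6. A low array 3 was not particular to these genes. Among all 29 tested kinases array 3 was the lowest for 14 and array 1 the highest for 15. Array 3 was the lowest also for 3 of the 4 rising kinases and for 4 of 4 xylem vessel markers. Within the CEF2-VP16 nst1 nst3 group the order differed, since array 1 was the lowest for 12 of the 18 early-response genes and for 1 of the 6 kinases, and array 3 for 3 of the 18 and 4 of the 6. Without array 3 the differences of CPK1 and CPK29 were -1.53 and -1.99, and 15 kinases passed as lower, among them CPK10 and not CPK7. The part of this early-response level in the kinase values was not tested.

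**Figure D3:**
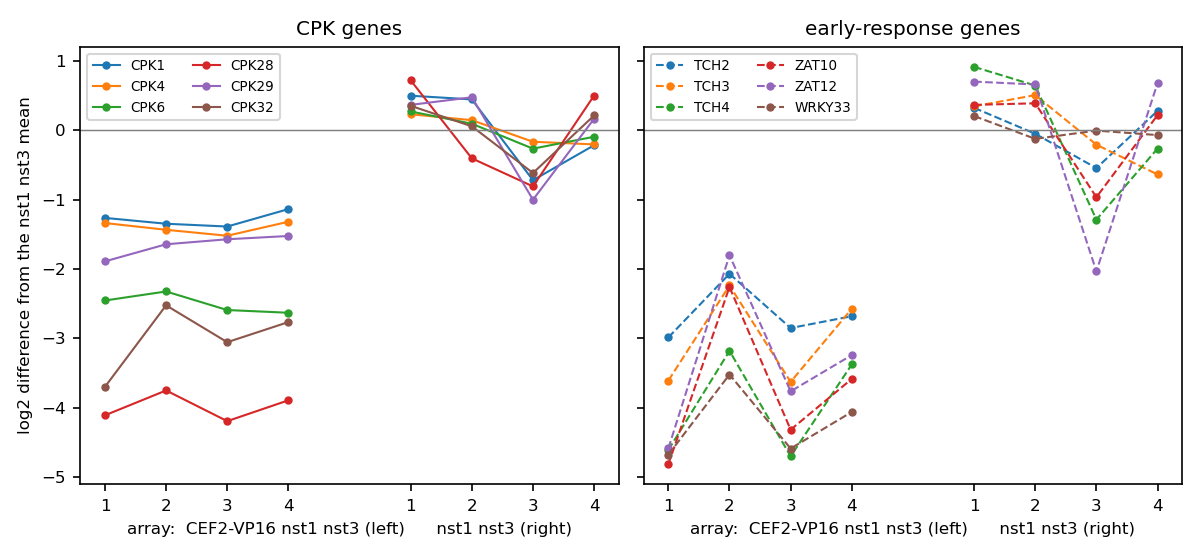
Log2 difference of each array from the nst1 nst3 mean of the same gene, for CPK1, CPK4, CPK6, CPK28, CPK29 and CPK32 (left panel) and 6 early-response genes (right panel). Points are arrays and lines join the arrays of 1 gene within a group, in no order of time. On nst1 nst3 array 3, all 6 CPK genes and all 6 early-response genes shown lie below their group mean, WRKY33 by little (3.615 against 3.622). Some early-response genes not shown lie above theirs on that array, such as ERF5 (2.41 against 1.97) and WRKY53 (1.32 against 1.13).

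A second set of falling kinases is known mainly from pollen. CPK17 and CPK34 are needed for pollen tube growth and CPK24 controls a pollen potassium channel, while CPK14 and CPK16 transcripts are known to be enriched in pollen. All 5 fell, by 1.60 to 1.81 log2 units. The size depended on the processing. An alternative used the median signals, normexp background correction and an added offset of 50 units. These changes were made together, and their separate parts were not tested. In that alternative all 5 still passed as lower, at -0.59 for CPK16, -0.80 for CPK34, -1.01 for CPK17, -1.25 for CPK24 and -1.38 for CPK14. There CPK16 and CPK34 differed by less than 2-fold. CPK2 and CPK20, which act on anion channels of the pollen tube, did not follow them: CPK2 read 1.22 and CPK20 was too dim to test. These 7 kinases were put together with their values known.

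CPK17 (AT5G12180, subgroup II) read -5.56, -5.45, -5.25 and -5.996 in CEF2-VP16 nst1 nst3 stems, against -3.83, -3.81, -3.74 and -3.64 in nst1 nst3 stems. The nst1 nst3 arrays differed little from one another and all were above the other group. CPK17 fell by 1.81 ± 0.15 (SE, n = 4 per group; limma adjusted p = 9.99e-05). CPK34 (AT5G19360, subgroup II), its close paralog, read -6.42, -6.27, -6.52 and -6.64 in CEF2-VP16 nst1 nst3 stems and -4.90, -4.46, -4.77 and -4.59 in nst1 nst3 stems. It fell by 1.79 ± 0.12 (limma adjusted p = 5.63e-05), with 1 value of the CEF2-VP16 nst1 nst3 group at the floor. Cross-binding between the probes of this pair was not tested.

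CPK24 (AT2G31500, subgroup III) read -3.58, -2.94, -3.12 and -3.45 in CEF2-VP16 nst1 nst3 stems, against -1.80, -1.73, -1.52 and -1.63 in nst1 nst3 stems. With the groups apart on every array, it fell by 1.60 ± 0.15 (SE, n = 4 per group; limma adjusted p = 0.00014), and its second probe differed by -1.31. CPK14 (AT2G41860, subgroup III) read -4.34, -3.88, -4.32 and -4.41 in CEF2-VP16 nst1 nst3 stems and -2.56, -2.51, -2.38 and -2.37 in nst1 nst3 stems. It fell by 1.78 ± 0.13 (limma adjusted p = 6.01e-05), and array 2 was the highest of its CEF2-VP16 nst1 nst3 arrays. CPK16 (AT2G17890, subgroup IV) read -6.64, -6.19, -6.20 and -6.64 in CEF2-VP16 nst1 nst3 stems, against -4.87, -4.86, -4.51 and -4.70 in nst1 nst3 stems. It fell by 1.68 ± 0.15 (limma adjusted p = 0.00011), with 2 CEF2-VP16 nst1 nst3 values at the floor. CPK16, CPK17 and CPK34 were well above background on 3 of the 4 CEF2-VP16 nst1 nst3 arrays and on 4 of 4 nst1 nst3 arrays.

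Most of the listed pollen markers moved in the same direction, where 24.8% of all genes fell and 29.5% rose. Of 5 listed markers 4 fell: the pectin methylesterases VGD1 (AT2G47040) by 1.73 ± 0.12 and PPME1 (AT1G69940) by 1.58 ± 0.23, and the pollen tube receptor kinases ANX1 (AT3G04690) by 1.06 ± 0.10 and ANX2 (AT5G28680) by 1.63 ± 0.15 (SE, n = 4 per group). MYB97, a pollen tube transcription factor, lay at the floor on 3 of 4 CEF2-VP16 nst1 nst3 arrays and on 2 of 4 nst1 nst3 arrays, and did not pass. The summed level of the 5 markers lay between 1.34 and 1.87 times the 75th percentile on the CEF2-VP16 nst1 nst3 arrays, against 4.53 to 5.30 times on the nst1 nst3 arrays. This sum is mostly VGD1, the brightest of the 5. VGD1 averaged 0.39 log2 units in CEF2-VP16 nst1 nst3 stems and 2.12 in nst1 nst3 stems. In the CEF2-VP16 nst1 nst3 group, array 2 was the highest for all 4 falling markers and for 4 of the 5 falling pollen kinases. In the nst1 nst3 group, array 1 was the lowest for 3 of these markers and for all 5 kinases. In bulk stem RNA fewer cells of a type and less RNA per cell cannot be told apart, and the part of the pollen marker level in the kinase values was not tested. The stem markers KNAT1 and PNY, regulators of inflorescence architecture, averaged 2.38 and 3.20 in CEF2-VP16 nst1 nst3 stems and 2.09 and 3.12 in nst1 nst3 stems. KNAT1 passed as higher, by 0.29 ± 0.10, and PNY did not pass. With spike-in scaling they read -0.16 and -0.37, neither with a call.

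**Figure D4:**
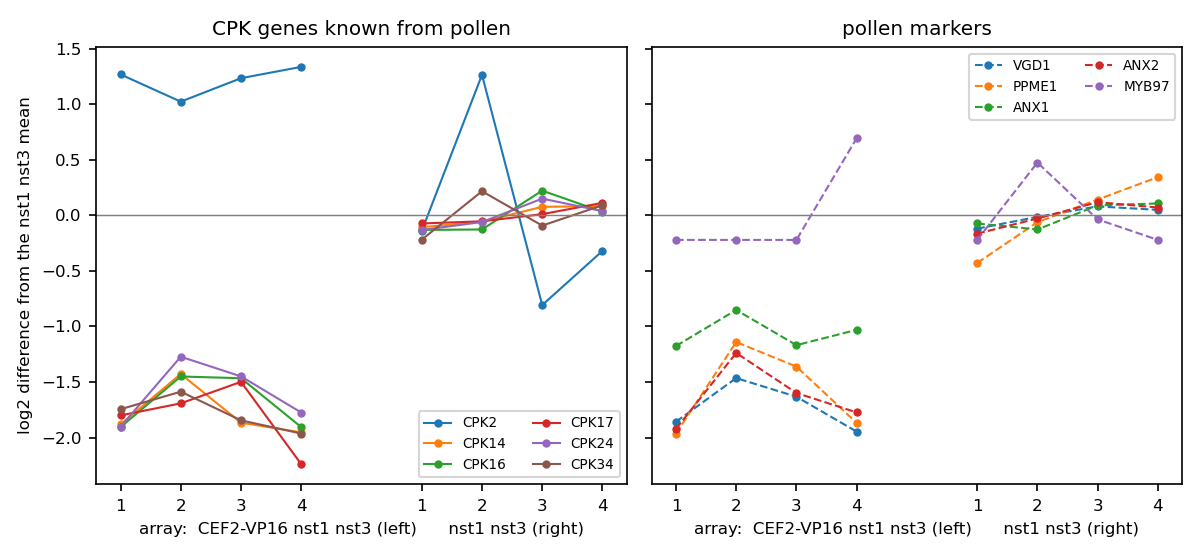
Log2 difference of each array from the nst1 nst3 mean of the same gene, for the 6 tested kinases known from pollen (left panel) and 5 pollen markers (right panel). Points are arrays and lines join the arrays of 1 gene within a group, in no order of time. CPK14, CPK16, CPK17, CPK24 and CPK34 and 4 markers lie below 0 on every CEF2-VP16 nst1 nst3 array, while CPK2 lies above.

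The spread among the nst1 nst3 arrays was read for the 6 falling kinases of stress, immunity and nitrate roles and the 5 falling pollen kinases. Both sets were put together with their values known, and a difference in spread between them was not tested. The standard deviation over these 4 arrays was 0.08 for CPK17, 0.10 for CPK14 and 0.12 for CPK24, and at most 0.19 in the pollen set, for CPK34. In the other set it was 0.73 for CPK28, 0.58 for CPK1 and 0.43 for CPK32. CPK4 and CPK5 both had 0.22 and CPK6 0.23, near the median of 0.21 over all genes. CPK29, which is in neither set, had 0.68 and was highest on array 2. The 5 pollen kinases were lowest on nst1 nst3 array 1, where the 6 falling kinases of stress and nitrate roles were highest. Over the family, the nst1 nst3 standard deviation was the larger of both groups for 20 of 29 kinases, or 69.0%, and for 73.3% of all genes.

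The 4 rising kinases differed by 0.48 to 1.24 log2 units. CPK31 (AT4G04695, subgroup II), known from arsenite uptake, read -3.00, -3.03, -3.77 and -3.60 in CEF2-VP16 nst1 nst3 stems, against -4.19, -4.33, -4.97 and -4.88 in nst1 nst3 stems. The lowest CEF2-VP16 nst1 nst3 array was above the highest nst1 nst3 array, and CPK31 rose by 1.24 ± 0.25 (SE, n = 4 per group; limma adjusted p = 0.00381). It was the single kinase that rose also with spike-in scaling, by 0.79. CPK2 (AT3G10660, subgroup I) read -2.70, -2.95, -2.73 and -2.63 in CEF2-VP16 nst1 nst3 stems and -4.11, -2.70, -4.78 and -4.29 in nst1 nst3 stems.

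The groups of CPK2 overlapped, because nst1 nst3 array 2 read like the CEF2-VP16 nst1 nst3 arrays. Its rise of 1.22 ± 0.39 (limma adjusted p = 0.0306) was 1.64 without that array, the sole leave-one-out fit of 8 in which it passed, and with spike-in scaling it read 0.77 without a call. CPK2 and its near paralog CPK1 therefore read in opposite directions. CPK15 (AT4G21940, subgroup II) rose by 0.88 ± 0.22 and CPK30 by 0.48 ± 0.12, and both lost the call with spike-in scaling, where CPK15 read 0.43. CPK31, CPK27, CPK22 and CPK21 follow each other directly on chromosome 4 in the gene table, with 1 gene between CPK21 and CPK23. In this cluster CPK27 (AT4G04700) read 0.15 and CPK21 (AT4G04720), which acts on the anion channel SLAC1, read -0.19, neither passing. With spike-in scaling CPK21 read -0.63 with a call.

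The remaining kinases differed by less than 1 log2 unit relative to the 75th percentile. CPK9 (AT3G20410), known from guard cells, fell by 0.69 ± 0.14 (-1.14 with spike-in scaling), with all nst1 nst3 arrays above all CEF2-VP16 nst1 nst3 arrays. CPK8 (AT5G19450), which acts on catalase, fell by 0.32 ± 0.10, and its close relative CPK7 (AT5G12480), known to affect aquaporin abundance, by 0.26 ± 0.09 (SE, n = 4 per group). With spike-in scaling CPK8 read -0.77 and CPK7 -0.71. Leaving out 1 array at a time, CPK8 passed in 7 of 8 fits and CPK7 in 1; the groups of CPK7 overlapped. The other kinases without a call were CPK12 (AT5G23580, abscisic acid responses) at -0.19, CPK13 (AT3G51850, a guard cell kinase) at -0.02, CPK33 (AT1G50700, guard cells and flowering) at -0.24 and CPK18 (AT4G36070) at -0.02. With spike-in scaling CPK12, CPK13 and CPK33 read -0.64, -0.47 and -0.69 and passed. CPK18 was at the floor on 7 of 8 arrays, so its difference is no measurement of change.

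By subgroup, 1 of 8 tested members of subgroup I rose and 4 fell, with a median difference of -0.31, where 29.5% of all genes rose and 24.8% fell. In subgroup II 2 of 10 rose and 4 fell (median -0.21), in subgroup III 1 of 8 rose and 5 fell (median -0.37), and in subgroup IV none of 3 rose and 2 fell (median -1.68). Falls of at least 2-fold occurred in every subgroup, 3 each in subgroups I, II and III and 2 in subgroup IV, beside 10.5% of all genes.

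Known targets of the kinases were followed as a list. Of 19 tested substrates 2 rose and 11 fell, with a median of -0.90, where 29.5% of all genes rose and 24.8% fell. With spike-in scaling none rose and 15 fell, where 10.6% of all genes rose and 40.1% fell. The largest falls were those of WRKY48 (AT5G49520), a defence transcription factor, at -4.67 ± 0.50, ACS6 (AT4G11280), an ethylene synthesis enzyme, at -3.85 ± 0.59, and RBOHD (AT5G47910), the NADPH oxidase activated by CPK5, at -3.25 ± 0.31. RBOHD read -0.19, 0.04, -0.14 and -0.004 in CEF2-VP16 nst1 nst3 stems, against 3.95, 3.22, 2.28 and 3.26 in nst1 nst3 stems. BIK1, the partner of CPK28, fell by 1.42 ± 0.14, while NLP7, the target of CPK10, CPK30 and CPK32, did not pass.

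Related calcium sensors and kinases were followed as well. Their counts stand beside 29.5% of all genes higher and 24.8% lower, or 10.6% and 40.1% with spike-in scaling. Of the 8 CDPK-related kinases, which resemble CPKs but have degenerate EF hands, 5 rose and 2 fell, with a median of 0.26; with spike-in scaling none rose and 2 fell. CRK4 (AT5G24430) fell by 2.001 ± 0.36 and CRK8 (AT1G49580) rose by 0.95 ± 0.14, or 0.51 without a call under spike-in scaling. Of 7 tested CBL calcium sensors 4 rose and 2 fell, with 2.52 ± 0.29 for CBL4 (AT5G24270) and -2.52 ± 0.69 for CBL1 (AT4G17615); with spike-in scaling 1 rose and 2 fell. Of 25 tested CIPKs, the kinases that CBLs activate, 4 rose and 7 fell, with a median of -0.04, or 2 and 9 with spike-in scaling. CIPK9 (AT1G01140) read -1.74 ± 0.38 and CIPK17 (AT1G48260) -1.72 ± 0.58. The groups of CIPK17 overlapped, with nst1 nst3 array 2 at -4.88 and CEF2-VP16 nst1 nst3 array 4 at -4.10. Differences between these families and the CPKs were not tested.

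Calcium transport genes were followed too. The counts of these lists stand beside 29.5% of all genes higher and 24.8% lower, or 10.6% and 40.1% with spike-in scaling. Of 23 calcium channel genes 5 rose and 7 fell (3 and 11 when scaled on the spike-ins), led by CNGC19 (AT3G17690), a wound-responsive channel, at -3.91 ± 0.63 and CNGC13 (AT4G01010) at -2.23 ± 0.18, while MCA2 (AT2G17780), a channel of mechanical stress, rose by 1.63 ± 0.34. Of 17 calcium pumps and exchangers 4 rose and 10 fell, with a median of -0.58; the spike-in counts were 2 and 11. The pump gene ACA1 (AT1G27770) read -2.89 ± 0.26 and ACA13 (AT3G22910) read -1.65 ± 0.46.

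Several CPKs are known from guard cells, so markers of other stem cell types were read beside the kinases. The marker counts stand beside 29.5% of all genes higher and 24.8% lower, or 10.6% and 40.1% with spike-in scaling. Of 4 guard cell markers 1 fell (HT1, a kinase of the carbon dioxide response, by 0.71) and none rose. Their summed level lay between 2.71 and 3.83 times the 75th percentile on the CEF2-VP16 nst1 nst3 arrays, against 1.99 to 4.80 times on the nst1 nst3 arrays, so the groups overlapped. Of 4 xylem vessel markers 4 rose, with summed levels of 33.7 to 38.8 on the CEF2-VP16 nst1 nst3 arrays and 16.1 to 32.0 on the nst1 nst3 arrays; with spike-in scaling 1 rose. Of 4 epidermis markers 3 rose and of 3 green cortex markers 3 rose, and none did with spike-in scaling. Of 3 phloem markers 1 rose and 1 fell, and with spike-in scaling none rose and 2 fell. The part of these levels in the kinase values was not tested.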

How the data were processed

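Stem RNA (200 ng per array, per the labels' protocols) was labelled with Cy3 on single-colour arrays. Per the file headers, the deposited processed signal is an intensity, background-corrected by Agilent Feature Extraction 11.5.1.1 on a TAIR10 grid; the submitters' processing notes name version 9.1.3.1. The authors' deposited value table holds natural log values: processed signals on that scale, less 7.15 (CEF2-VP16 nst1 nst3) or 7.39 (nst1 nst3). It served as an alternative; column medians ran from -1.26 to -0.84.

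Control and outlier spots were left out, spots of a probe averaged, and values scaled to the 75th percentile of 43603 probes, with a floor at 0.01. Accessions named 34348 probes by way of the TAIR10.1 gene table; 9255 stayed unnamed. The brightest probe above background on at least 4 arrays stood for a gene. All 19609 genes were fitted with limma 3.58.1 (R 4.3.3) without covariates, checked on simulated data. SE are those of the moderated fit.

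Members and lists were chosen with earlier results of these data known. Kinases past the test with at least a 2-fold difference were given by array, and up to 3 genes of each other list by size; others were added after their values were seen. No coordinates are given because the builds are named differently. Alternatives changed background correction, scaling, filter, floor, probe choice, moderation, weights, threshold, block and arrays; mean signals were not among the columns, so median signals were used. The number of arrays limits precision.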

Additional observations from a re-analysis of the deposited data

Results flagged for a closer look

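In 4 of 57 groups of 4 arrays, 1 kinase value lay apart from the others by Dixon's ratio; chance alone would mark about 1 in 20. CPK9 on nst1 nst3 array 1 read 0.65, while the other arrays of the group lay between 0.04 and 0.14. CPK13 on nst1 nst3 array 4 read 0.78, below the 1.058 to 1.103 of the others. CPK14 on CEF2-VP16 nst1 nst3 array 2 read -3.88, above the others at -4.41 to -4.32. CPK18 on nst1 nst3 array 2 read -6.55 with the other arrays at the floor. Tied floor values force its ratio to 1, so this flag cannot be set against the chance rate.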

How the results depend on the processing

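Over 22 alternatives, the falls of CPK28, CPK32, CPK6, CPK4, CPK1, CPK29, CPK9, CPK14 and CPK24 kept their direction and call. So did those of CPK16, CPK17 and CPK34, which the filter on all 8 arrays left untested. With normexp on the median signals and its offset these read -0.59, -1.01 and -0.80. Spike-in scaling gave 1 kinase higher and 23 lower (2084 and 7856 of all genes). A threshold of 0.01 gave 2 and 12 (3984 and 3230), and the authors' values 4 higher and 12 lower (4224 and 2981). Leaving out 1 array gave 3 to 4 kinases higher and 13 to 16 lower (4894 to 5914 and 4105 to 5434 of all genes). With the replicate number as a block 3 were higher and 12 lower (4715 and 3904 of all genes); CPK2, CPK5, CPK7 and CPK8 lost the call, but same-numbered arrays did not deviate together (r = -0.04, -0.20, 0.16 and -0.40 for numbers 1 to 4) and were not each closest to their own number. CPK13 changed sign without a call, to 0.20 with normexp, 0.0051 with quantile normalization, 0.043 with array weights, 0.064 without nst1 nst3 arrays 2 and 3, and to at most 0.017 when 1 array was left out (lowest -0.089). CPK18 read 0.19 with normexp, CPK27 -0.30 with spike-in scaling and CPK3 -0.18 to 0.037 over the leave-one-out fits. The causes were not tested. Signal over background limits CPK16, CPK18 and CPK34, which reach the floor.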
